A study of Mus musculus with 12 samples.

Results

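A set of 10 immediate early genes were followed in quadriceps muscle of mice given AICAR, GW1516 or both drugs. The genes were Fos, Fosb, Jun, Junb, Jund, Egr1, Ier2, Ier5, Atf3 and Btg2, and they were found by these symbols in the annotation of the array. The 10 genes had 15 probe sets, of which 12 passed a filter on low signals. The brightest probe set stood for a gene with several, and 9 of the 10 genes were among the 12771 genes tested, with Fosb below the filter.

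The mice, of the inbred strain C57Bl/6J, received vehicle, AICAR (250 mg/kg/day), GW1516 (5 mg/kg/day) or these doses of both drugs together, called the combination here, in each case for 6 days. AICAR is an adenosine analogue whose phosphorylated form switches on AMPK, the kinase by which cells sense a shortage of energy. GW1516 activates PPARδ, a nuclear receptor for lipids that is abundant in muscle. No genetic change and no age is named in the labels. Muscles were dissected at the end of treatment and frozen at once. Each group had 3 Affymetrix arrays, and each array held RNA pooled from 3 mice. It is not stated whether 1 mouse could enter several pools, so a p-value here reflects how far these pools scatter, which may be technical.

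Immediate early genes are transcribed within minutes of a stimulus, without the need for new protein synthesis, and their RNAs are short-lived. In muscle they are known for brief induction by contraction, stretch, injury and growth factors, and handling of a tissue can also induce them. Fos and Jun family proteins pair as the AP-1 transcription factor, Egr1 is a zinc finger factor induced through SRF and its ELK partners, and CREB binds cAMP response elements (CRE) in several of these promoters. A single time point after 6 days of dosing shows a level at dissection and not a time course.

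The promoters of 4 genes are shown because they carry the letters read by these factors to different extents. Fos and Junb are AP-1 genes with the short form of the CRE, and Btg2 holds the full CRE. Ier5, with the smallest p of the 9 members tested in the combination against vehicle, has none of these letters. Jun and Jund, whose sequences are not shown, have none of them either. Each sequence is the 250 bases before the annotated start, read 5′ to 3′ on the gene's own strand, from RefSeq on mouse build GRCm38.p6. Capitals mark every match to the CRE (TGACGTCA), its short form (TGACG), the AP-1 site (TGANTCA) or the CArG box bound by SRF, searched on both strands. The full CRE contains the short form.
Fos: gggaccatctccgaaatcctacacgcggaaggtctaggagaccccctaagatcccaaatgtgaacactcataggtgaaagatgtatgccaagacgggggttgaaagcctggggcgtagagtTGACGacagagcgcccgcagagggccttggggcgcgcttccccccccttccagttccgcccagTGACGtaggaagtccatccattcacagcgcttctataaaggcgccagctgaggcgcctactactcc
Junb: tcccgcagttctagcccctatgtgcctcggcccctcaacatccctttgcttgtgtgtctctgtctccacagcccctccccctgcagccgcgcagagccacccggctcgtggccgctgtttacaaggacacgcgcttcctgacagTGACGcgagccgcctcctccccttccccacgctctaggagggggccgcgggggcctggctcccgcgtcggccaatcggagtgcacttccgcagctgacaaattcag
Btg2: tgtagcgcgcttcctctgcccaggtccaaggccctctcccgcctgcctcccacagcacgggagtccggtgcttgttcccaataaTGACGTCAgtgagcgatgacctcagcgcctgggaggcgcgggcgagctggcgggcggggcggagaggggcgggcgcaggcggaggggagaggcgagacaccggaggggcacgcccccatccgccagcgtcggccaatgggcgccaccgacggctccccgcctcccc
Ier5: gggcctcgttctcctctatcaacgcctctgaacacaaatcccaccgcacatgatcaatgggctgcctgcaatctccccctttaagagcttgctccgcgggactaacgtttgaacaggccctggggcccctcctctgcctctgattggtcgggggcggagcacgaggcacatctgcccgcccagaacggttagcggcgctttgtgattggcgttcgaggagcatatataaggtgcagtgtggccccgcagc
The Fos sequence lies at chr12:85473640-85473889 on the plus strand. The other sequences are on minus strands, Junb at chr8:84978749-84978998, Btg2 at chr1:134079156-134079405 and Ier5 at chr1:155099637-155099886.

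The search covered the RefSeq promoters of 8 of the 10 genes. Egr1 and Ier2 were left out of it, so the counts do not cover them. The short form was present in 5 of the 8, namely Fos, Fosb, Junb, Atf3 and Btg2, against 17.8% of all 32851 promoters of the same length. Fos held it at bases -129 to -125 and -66 to -62 from the start, Junb at -106 to -102, Fosb at -60 to -56 and Atf3 at -7 to -3. The full CRE was found in 1 of the 8, Btg2 at -166 to -159, and in 1.55% of all promoters. The AP-1 letters were in 0 of the 8 against 6.75% of all promoters, and the CArG box was in 0 against 1.47%. EGR letters (GCGNGGGCG) were in Btg2 and Fosb and in 4.70% of all promoters. A TATA box (TATAAA) was in Fos, at -33 to -28, and in 12.4% of all. CCAAT was in 4 of the 8 and in 33.8% of all, and the GC box (GGGCGG) was in 6 of the 8 and in 32.7% of all. These are matches of letters in a fixed window and say nothing about binding. Sites outside the window were not searched, so a count of 0 does not show that a gene lacks the site.

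Every array had a trimmed mean signal of 200, with medians of 45.4 to 54.2. The 3' to 5' signal ratio, which reports on RNA degradation, was 0.802 to 0.880 for the Gapdh controls and 0.782 to 0.936 for those of Actb. The Actb ratio was lower on the GW1516 (0.782 to 0.847) and combination arrays (0.785 to 0.812) than on the vehicle arrays (0.855 to 0.936). The Gapdh ratio was higher on the AICAR arrays (0.848 to 0.880) than with vehicle (0.802 to 0.842). GW1516 replicate 2 lay far from the rest on the first principal component of all genes, with a score of 45.9 against -18.7 to 6.77 on the other 11 arrays. Several of the differences that it moved are also given without it. All 12 of 12 skeletal muscle fibre markers, among them Acta1 and Ckm, passed the filter, with summed signals of 233800 to 299200, as the labelled tissue would have.

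No immediate early gene passed the test in any comparison of groups. In the combination, the smallest p-values among the 9 genes belonged to a higher signal of Ier5 and lower signals of Ier2 and Junb. Fos, Egr1, Jund, Btg2 and Atf3 differed from vehicle by less than 2 standard errors in every group. A gene was called at a Benjamini-Hochberg adjusted p below 0.05 in limma, which fitted all 12 arrays together. Few other genes were called either, namely 0.00783% of all genes tested for AICAR against vehicle, 0.0940% for GW1516 against vehicle and 0.258% for the combination against vehicle. The share was 0.0313% for GW1516 added to AICAR, 0% for AICAR added to GW1516, 0.0313% for the average AICAR effect, 0.149% for the average GW1516 effect, 0% for the interaction and 0.110% for the F test over the 4 groups. The average AICAR effect is the mean of the AICAR difference without and with GW1516, and the interaction is the difference between these differences. Where no gene was called, 848 genes had an unadjusted p below 0.05 for the interaction, 6.64% of those tested, and 1326 did for AICAR added to GW1516. The 3 comparisons against vehicle share the vehicle arrays and are not independent. In bulk tissue, fewer cells of a type and less RNA per cell cannot be told apart.

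**Figure D1:**
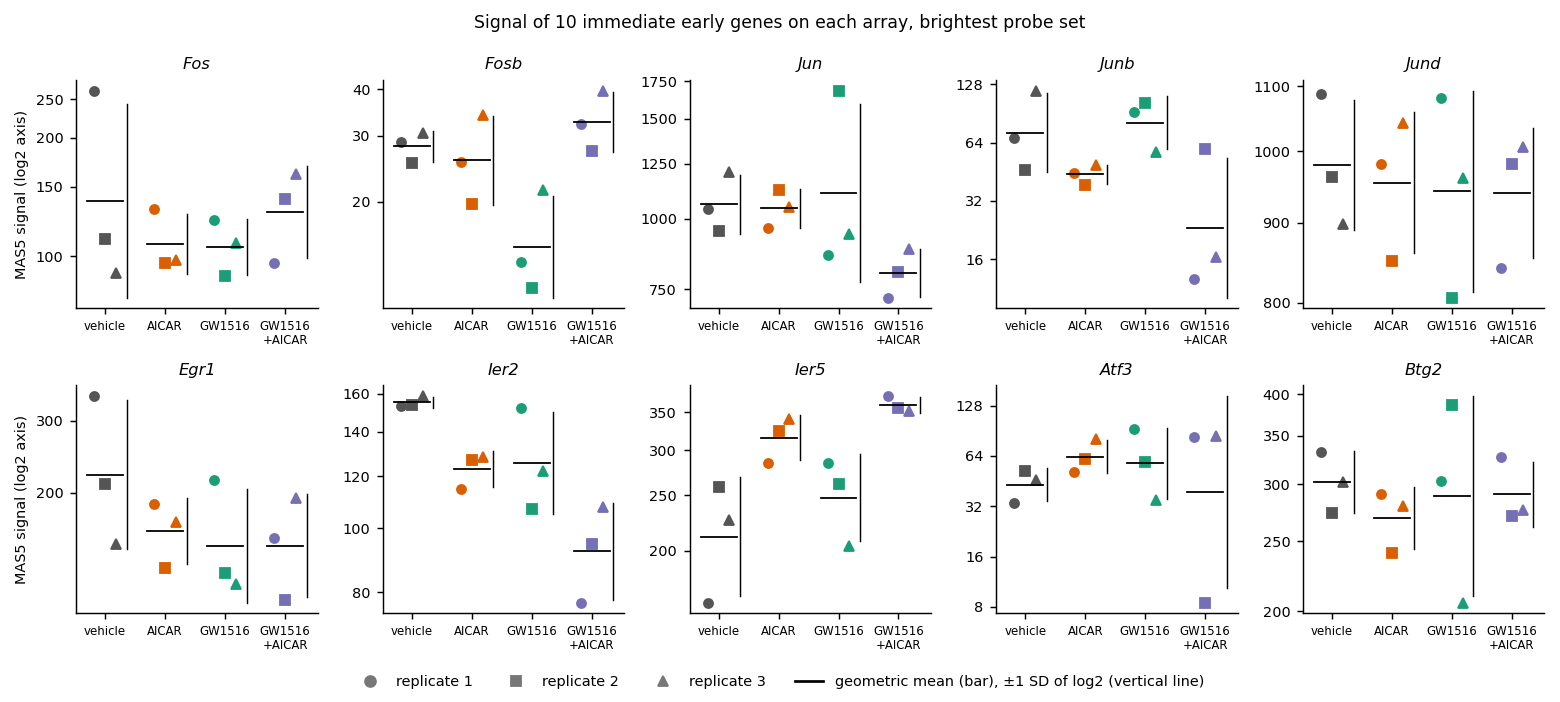
Signal of each immediate early gene on every array (MAS5 units, log2 axis that differs by gene), by group, with the geometric mean as a bar and 1 SD of log2 signal as a vertical line. Ier5 lies between 352 and 374 in the combination, above all arrays of the other groups, and vehicle replicate 1 is the highest array for Fos at 263 and Egr1 at 345.

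Fos, the partner of Jun proteins in AP-1, had its highest signal on 1 vehicle array. The Fos signal was 263, 111 and 90.7 on the vehicle arrays and 132, 96.3 and 97.8 on the AICAR arrays. It was 123, 89.1 and 108 on the GW1516 arrays and 96.0, 140.1 and 161 on the combination arrays. Apart from vehicle replicate 1, all arrays lay between 89.1 and 161, and every drug group overlapped vehicle. The mean signal was 155 ± 94.3 for vehicle, 109 ± 20.0 for AICAR, 107 ± 17.2 for GW1516 and 132 ± 33.3 for the combination (SD, n = 3 each). The log2 difference from vehicle was -0.36 ± 0.33 (SE) for AICAR, -0.38 ± 0.33 for GW1516 and -0.09 ± 0.33 for the combination (limma, adjusted p = 0.858, 0.741 and 0.942). Without vehicle replicate 1 these values were 0.10, 0.08 and 0.37, so that array set their sign. The Fos interaction of 0.65 ± 0.47 (limma, adjusted p = 0.796) was 0.19 without it.

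Fosb, a Fos paralogue that also pairs with Jun proteins, was measured by 1 probe set below the filter signal of 28.2 on average. Its signal was 28.8, 25.3 and 30.5 with vehicle, 25.5, 19.7 and 34.2 with AICAR, 13.8, 11.7 and 21.5 with GW1516, and 32.3, 27.3 and 39.6 with the combination. The GW1516 arrays were all below the vehicle and the combination arrays, whereas AICAR and vehicle overlapped. In a fit with no filter, over 18193 genes, Fosb differed from vehicle by -0.12, -0.89 and 0.22 on the log2 scale for AICAR, GW1516 and the combination, each ± 0.47 (limma, adjusted p = 0.978, 0.648 and 0.918). AICAR added to GW1516 gave 1.11 ± 0.47 (limma, adjusted p = 0.499).

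Jun, the central AP-1 subunit, had its lowest signals in the combination. The Jun probe set 1417409_at read 1041, 950.6 and 1206 with vehicle, 961, 1124 and 1050.3 with AICAR, 864, 1683 and 940.2 with GW1516, and 724, 806 and 882 with the combination. The combination arrays were all below the vehicle and AICAR arrays, and they overlapped GW1516 at its first replicate. The log2 difference of the combination from vehicle was -0.40 ± 0.19, with a 95% confidence interval of -0.82 to 0.01 (limma, adjusted p = 0.474). On the other Jun probe set, 1448694_at, this difference was -0.16 ± 0.15 and the combination arrays, at 360.4, 313 and 444, overlapped vehicle at 419, 373 and 451. AICAR added to GW1516 gave -0.47 ± 0.19 for Jun (limma, adjusted p = 0.438) and -0.17 without GW1516 replicate 2, which held the signal of 1683. Without the same array the GW1516 difference from vehicle went from 0.07 to -0.24.

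Junb, an AP-1 subunit that can oppose Jun, had the largest difference from vehicle in the combination and a wide spread within groups. Its signal was 67.8, 46.5 and 119 with vehicle, 44.6, 38.7 and 48.8 with AICAR, 91.9, 103 and 57.0 with GW1516, and 12.7, 59.6 and 16.4 with the combination. Combination replicates 1 and 3 were the lowest of all 12 arrays and lay under the filter signal of 28.2, while replicate 2 lay within the vehicle range. The log2 difference from vehicle was -1.64 ± 0.52 for the combination, with a 95% confidence interval of -2.76 to -0.51, a signal 3.11-fold lower (limma, adjusted p = 0.262). It was -0.72 ± 0.52 for AICAR and 0.17 ± 0.52 for GW1516 (limma, adjusted p = 0.813 and 0.944). AICAR added to GW1516 gave -1.81 ± 0.52 and the average AICAR effect was -1.26 ± 0.37 (limma, adjusted p = 0.296 and 0.263). With a pseudocount of 32 the combination difference was -0.86 and the average AICAR effect -0.72. Leaving out 1 array at a time gave -2.32 to -1.20 for the combination, the former without the second combination array and the latter without the first.

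Jund, the Jun family member known for steady expression in resting cells, gave the narrowest intervals of the Fos and Jun families. The Jund probe set 1449117_at read 1087, 963 and 899 with vehicle, 981, 851 and 1042 with AICAR, 1081, 806 and 961 with GW1516, and 842, 981 and 1005 with the combination. All 4 groups overlapped. The log2 difference of the combination was -0.06 ± 0.12, with a 95% confidence interval of -0.32 to 0.20 (limma, adjusted p = 0.895). For AICAR it was -0.04, with an interval of -0.30 to 0.22, and for GW1516 -0.06, with an interval of -0.32 to 0.21, or 0.06 without GW1516 replicate 2. A further Jund probe set, 1440265_at, was below the filter at 10.5 to 43.0 over the 12 arrays.

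Egr1, the zinc finger factor of growth factor and stress responses, had lower means in all drug groups, and 1 vehicle array carried much of the difference. The Egr1 signal was 345, 210.2 and 149.9 with vehicle, 188, 131 and 170.0 with AICAR, 215, 127 and 119.6 with GW1516, and 155, 109 and 194 with the combination. Vehicle replicate 1 was the highest of the 12 arrays, as it was for Fos, and each drug group overlapped the other vehicle arrays. The log2 difference from vehicle was -0.46 for AICAR, -0.58 for GW1516 and -0.58 for the combination, each ± 0.31 (limma, adjusted p = 0.789, 0.559 and 0.515). Without vehicle replicate 1 the values were -0.14, -0.26 and -0.26.

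Ier5, an immediate early gene whose product is known as a regulator of heat shock factor HSF1, had the smallest p of the 9 genes in AICAR and the combination against vehicle, in the average AICAR effect and in the F test. Its signal on probe set 1417612_at was 162, 259 and 227 with vehicle and 285.5, 325 and 340.6 with AICAR. It was 285.4, 262 and 204 with GW1516 and 374, 357 and 352 with the combination. Every AICAR array and every combination array was above every vehicle array, the combination arrays were above the AICAR arrays, and GW1516 overlapped vehicle. The order of the mean signals was vehicle, 216 ± 49.6, GW1516, 250.2 ± 42.0, AICAR, 317 ± 28.3, and the combination, 361 ± 11.96 (SD, n = 3 each). Of neighbours in this order, vehicle and GW1516 overlapped, and the lowest AICAR and the highest GW1516 array were nearly equal.

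The Ier5 difference of the combination from vehicle was 0.77 ± 0.17 on the log2 scale, a ratio of 1.70, with a 95% confidence interval of 0.40 to 1.14. It was number 65 of the 12771 genes by p and missed the threshold (limma, adjusted p = 0.0958). For AICAR the difference was 0.58 ± 0.17 and for GW1516 0.23 ± 0.17 (limma, adjusted p = 0.494 and 0.695). AICAR added to GW1516 gave 0.54 ± 0.17, GW1516 added to AICAR 0.19 ± 0.17, and the average AICAR effect was 0.56 ± 0.12 (limma, adjusted p = 0.327, 0.822 and 0.115). Without vehicle replicate 1, the lowest array, the differences were 0.57 for the combination and 0.38 for AICAR.

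The other Ier5 probe sets did not separate the groups. Probe set 1417613_at read 76.0, 141 and 128 with vehicle, 124, 154 and 134 with AICAR, 148, 129 and 85.0 with GW1516, and 199, 123 and 111 with the combination. All groups overlapped, and the differences from vehicle had the same sign as on the brighter probe set, 0.30 for AICAR, 0.08 for GW1516 and 0.33 for the combination, each ± 0.28 (limma, adjusted p = 0.856, 0.959 and 0.712). The remaining probe set, 1460009_at, was below the filter and ranged from 2.17 to 67.9. Its untested log2 differences from vehicle were 0.81 for AICAR, 1.02 for GW1516 and -0.60 for the combination, the last of the other sign. Beside Ier5, the summed signal of the fibre markers was also above every vehicle array in AICAR and the combination, at 234600 to 247000 for vehicle, 249600 to 251400 for AICAR and 263900 to 278100 for the combination, and at 233800 to 299200 for GW1516. The part of these values in the Ier5 difference was not tested.

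**Figure D2:**
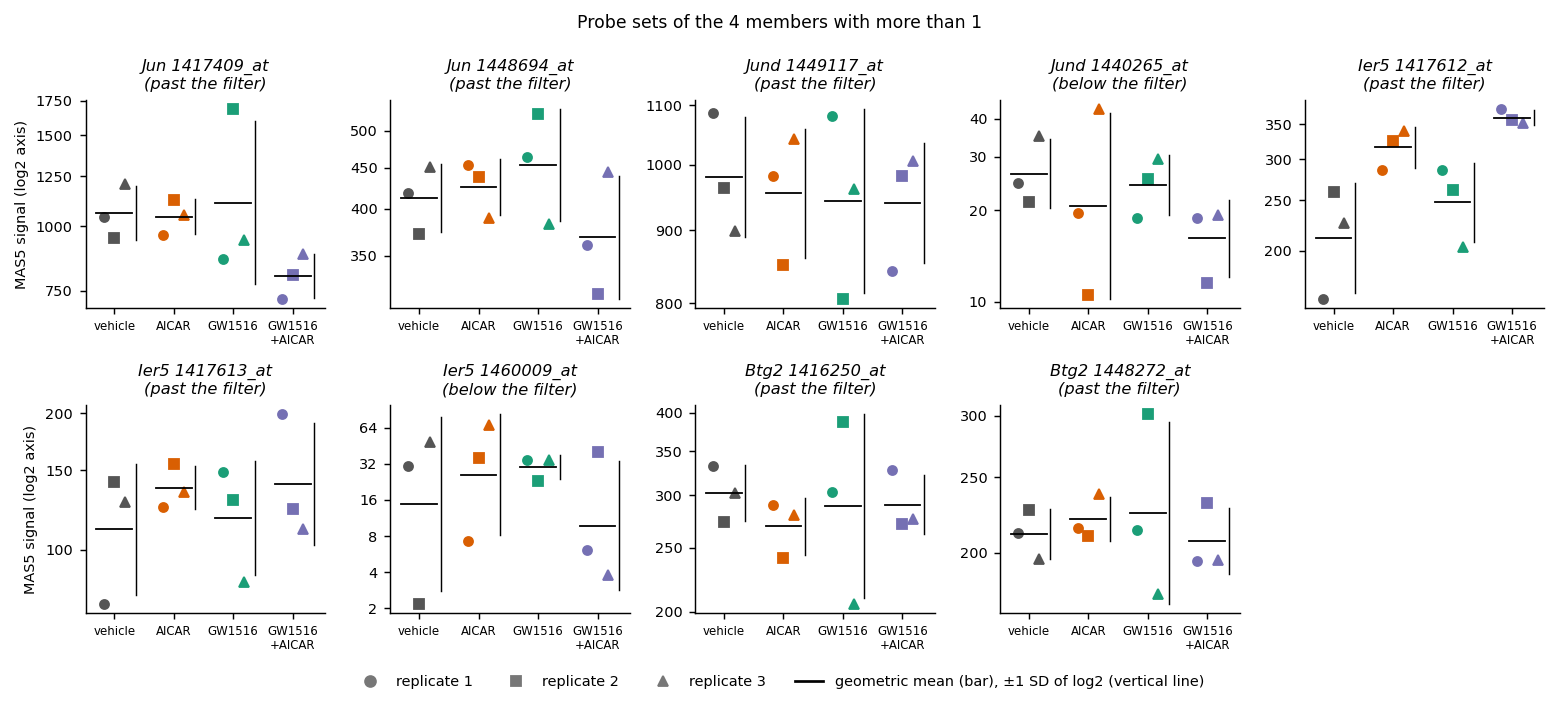
Signal on each array (MAS5 units, log2 axis that differs by probe set) for the 4 genes with more than 1 probe set, with the geometric mean as a bar and 1 SD of log2 signal as a vertical line. AICAR and the combination lie above vehicle on Ier5 probe set 1417612_at, where GW1516 overlaps vehicle, and all groups overlap on 1417613_at, and GW1516 replicate 2 is the highest array on both probe sets of Jun and of Btg2.

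Ier2, a nuclear protein induced early by growth factors, was lowest in the combination. Its signal was 153, 154 and 159 with vehicle, 115, 127 and 128 with AICAR, 152, 107 and 122 with GW1516, and 77.0, 94.8 and 108 with the combination. The vehicle arrays were above all 9 arrays of the drug groups, closely followed by GW1516 replicate 1 at 152, and the combination arrays were also below all AICAR arrays. The mean signal was 155 ± 3.03 for vehicle, 123 ± 7.50 for AICAR, 127 ± 23.1 for GW1516 and 93.2 ± 15.4 for the combination (SD, n = 3 each). AICAR and GW1516 overlapped each other.

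The combination differed from vehicle by -0.75 ± 0.18 on the log2 scale for Ier2, with a 95% confidence interval of -1.14 to -0.36, a signal 1.68-fold lower (limma, adjusted p = 0.137). AICAR alone gave -0.34 ± 0.18 and GW1516 alone -0.30 ± 0.18 (limma, adjusted p = 0.752 and 0.606). The GW1516 value was -0.19 without GW1516 replicate 2 and -0.44 without replicate 1. The interaction was -0.11 ± 0.26, with a 95% confidence interval of -0.66 to 0.44 (limma, adjusted p = 0.946). The average AICAR effect was -0.39 ± 0.13 and the average GW1516 effect -0.36 ± 0.13 (limma, adjusted p = 0.314 and 0.426). The Actb 3' to 5' ratio was also lower on the GW1516 and combination arrays than with vehicle, and its part was not tested.

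Atf3, a stress-induced factor of the ATF family that pairs with Jun proteins, varied as much within groups as between them. Its signal was 33.4, 51.8 and 45.8 with vehicle, 51.5, 61.2 and 81.1 with AICAR, 93.5, 59.3 and 35.1 with GW1516, and 82.6, 8.42 and 84.9 with the combination. The second combination array was the lowest of the 12, and all groups overlapped vehicle. The log2 difference from vehicle was 0.56 for AICAR, 0.43 for GW1516 and -0.14 for the combination, each ± 0.70 (limma, adjusted p = 0.901, 0.876 and 0.960). Without the second combination array the combination difference was 0.96.

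Btg2, an antiproliferative gene induced by p53 and growth factors, did not separate the groups on either probe set. The Btg2 probe set 1416250_at read 333, 274 and 303 with vehicle, 290.5, 241 and 279.6 with AICAR, 304, 387 and 205 with GW1516, and 327, 271 and 276 with the combination. The highest and the lowest arrays were both GW1516 arrays. The log2 difference from vehicle was -0.17 for AICAR, -0.06 for GW1516 and -0.06 for the combination, each ± 0.19 (limma, adjusted p = 0.893, 0.943 and 0.940), and the 95% confidence interval for the combination was -0.46 to 0.35. The GW1516 value was -0.27 without GW1516 replicate 2 and 0.18 without replicate 3, so single arrays set its size and sign. On probe set 1448272_at, which ran from 177 to 301.0, the same differences were 0.06, 0.09 and -0.03.

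**Figure D3:**
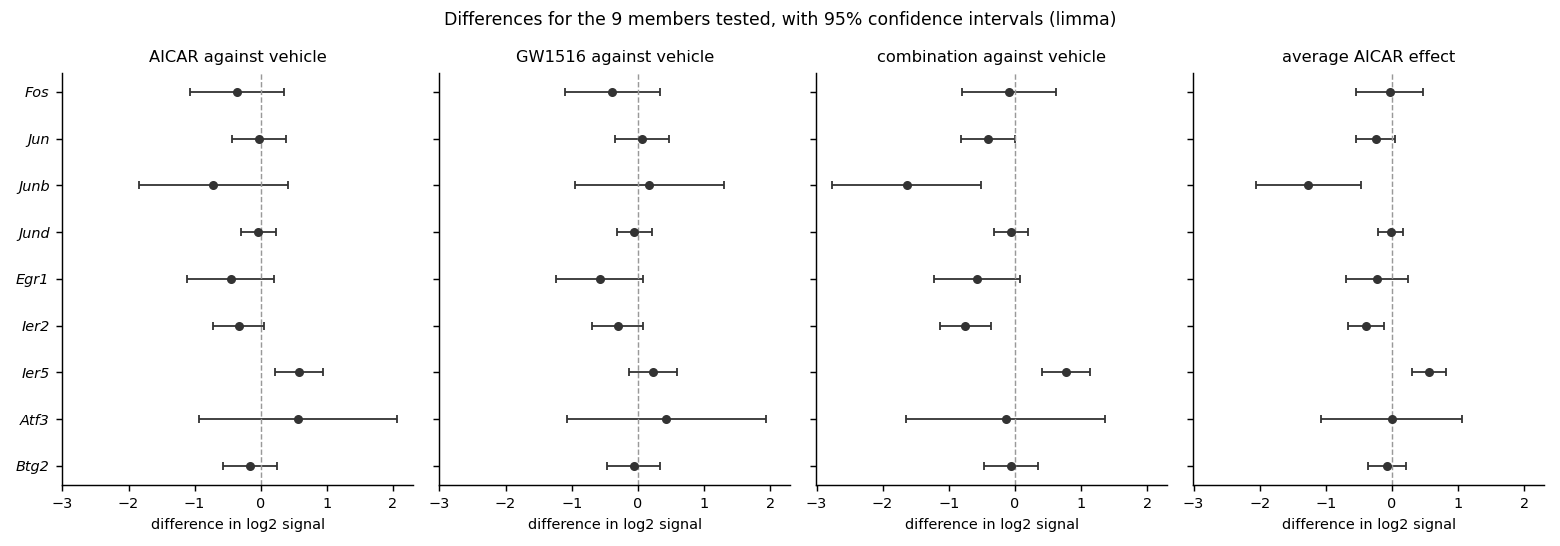
Log2 difference in signal for the 9 genes tested, for each drug group against vehicle and for the average AICAR effect, with 95% confidence intervals from limma. The intervals for Ier5, Ier2 and Junb exclude 0 in the combination and in the average AICAR effect before adjustment for the number of genes, and those of Atf3 are the widest.

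Counted over the 9 genes tested, 8 lay below vehicle in the combination, 7 in AICAR and 5 in GW1516, where 50.9%, 48.0% and 52.9% of all genes did. Without vehicle replicate 1 these counts were 5, 5 and 2, and without the first combination array the combination count was 6. The median log2 difference of the 9 genes was -0.14 in the combination, -0.17 in AICAR and -0.06 in GW1516, beside 0.00, 0.01 and -0.01 over all genes. Single arrays moved these medians, to -0.33 and -0.47 in the combination without its replicates 1 and 3, to -0.04 in AICAR without vehicle replicate 1 and to 0.18 in GW1516 without GW1516 replicate 3. Unadjusted p-values below 0.05 were found for 3 of the 9 in the combination (Ier5, Ier2 and Junb), 1 in AICAR (Ier5) and 0 in GW1516, against 10.9%, 6.93% and 9.64% of all genes. For AICAR added to GW1516 there were 4 of 9 (Junb, Ier5, Ier2 and Jun), against 10.4% of all genes. The average AICAR effect gave 3 of 9, against 10.4%, and GW1516 added to AICAR 1 of 9, against 7.32%. The average GW1516 effect gave 1 of 9 (Ier2), against 9.51%, and the interaction 0 of 9.

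Groups without overlap were counted in the same way. Against vehicle, 3 of the 9 genes did not overlap in the combination (Ier5 above, Ier2 and Jun below), where 18.6% of all genes did not. In AICAR they were 2 of 9 (Ier5 above, Ier2 below), against 18.3%, and in GW1516 1 of 9 (Ier2 below), against 14.2%. The combination and AICAR did not overlap for 3 of 9 (Ier5, Ier2 and Jun), against 14.5%, and the combination and GW1516 for 1 of 9 (Ier5), against 12.8%. The counts of 1 and 2 of 9 lie near the shares over all genes, and those of 3 and 4 of 9 exceed them by a few genes, a difference that was not tested. The same Ier5, Ier2, Junb and Jun make up these counts, and the comparisons share arrays. The moderated F test over the 4 groups gave its smallest p for Ier5, followed by Ier2 and Junb (limma, adjusted p = 0.228, 0.341 and 0.383).

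**Figure D4:**
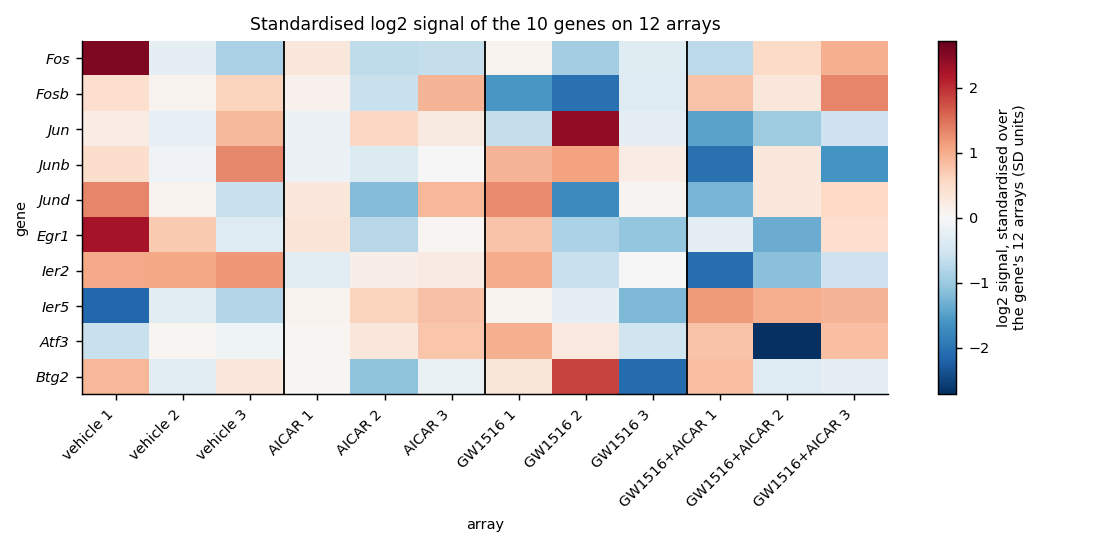
Log2 signal of each gene (rows) on each array (columns), standardised over the gene's 12 arrays and coloured from low (blue) to high (red) in SD units, with lines between groups. Fos and Egr1 are both highest and Ier5 lowest on vehicle replicate 1, and no array is high or low for all 10 genes.

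The 9 genes tested did not vary as 1 block from array to array. Deviations from the group means were correlated for the 36 pairs of tested genes, with Pearson r from -0.679 to 0.722 and a median of 0.0748 over 12 arrays, and 22 pairs were above 0. The highest values were 0.722 for Fos and Egr1, 0.713 for Fos and Jund, 0.673 for Jund and Ier2 and 0.645 for Jund and Egr1. Without vehicle replicate 1 the first of these was 0.490 and the second 0.749, over 11 arrays. The lowest were -0.679 for Fos and Ier5, which was -0.169 without that array, and -0.659 for Junb and Atf3. On combination replicate 2, Junb was the highest of its group at 59.6 and Atf3 the lowest of all arrays at 8.42. The part of that array in the value for Junb and Atf3 was not tested. All pairs share the arrays, their pools and their scaling, and these values are a description.

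Among the other genes tested, the 6 whose log2 signal followed the mean standardised signal of the 9 genes most closely over the 12 arrays were Prkd3 (Pearson r = 0.873), Gba2 (0.863), Kdm6b (0.854), Sap30l (0.815), Misp3 (0.814) and Dgkz (0.807). The lowest correlations were -0.920 for Clec2d, -0.845 for Exoc3l2 and -0.839 for Snapc4. These genes were picked as the extremes over all other genes tested, so the size of r is no evidence of a link. With the group means removed, r was 0.723 to 0.946 for the 6 genes and -0.898 to -0.838 for the lowest, so much of the likeness was scatter within groups. The mean standardised signal itself ran from 0.0858 to 0.668 SD units on the vehicle arrays, -0.271 to 0.235 with AICAR, -0.579 to 0.537 with GW1516 and -0.559 to 0.0764 with the combination. The vehicle arrays overlapped AICAR and GW1516, and lay above the combination arrays.

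Genes of the same response outside the 10 were read from 5 lists. With the settings used throughout, 0 genes of these lists were called in any comparison. Of 17 other immediate early transcription factors 15 were tested, and 10 lay below vehicle in the combination, with 6 lower and 1 higher at an unadjusted p below 0.05 and a median log2 difference of -0.25. For AICAR 7 of these 15 lay below vehicle, 6 of them at an unadjusted p below 0.05, with a median of 0.04. The 6 became 3 without vehicle replicate 1 and 4 without GW1516 replicate 2. For GW1516 6 of the 15 lay below vehicle, with 2 higher and 1 lower at that p and a median of 0.12, and 10 of the 15 lay below with a median of -0.05 without GW1516 replicate 2. Over all genes, 5.79% were lower and 5.07% higher at that p in the combination, and 3.05% were lower in AICAR. The genes of feedback and signalling, such as phosphatases and RNA-decay factors, gave 15 of 24 tested (28 listed) below vehicle in the combination, with 7 lower and 1 higher at that p and a median of -0.12. Upstream kinases and promoter-binding factors gave 14 of 24 below and a median of -0.04, AP-1 partners and EGR corepressors 8 of 13 and -0.07, and AP-1 and EGR target genes 5 of 13 and 0.07.

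Klf10, an early factor of TGF-β signalling, gave the smallest F test p among the other early transcription factors. Its signal was 223, 186 and 225 with vehicle, 102, 116 and 110.4 with AICAR, 169.7, 552 and 217 with GW1516, and 126, 99.8 and 119 with the combination. All AICAR and combination arrays were below all vehicle and GW1516 arrays. The average AICAR effect on Klf10 was -1.10 ± 0.22 (limma, adjusted p = 0.0896), and without GW1516 replicate 2, which read 552, it was -0.84 ± 0.12 and passed the threshold (limma, adjusted p = 0.0143). The combination difference of -0.88 had an adjusted p of 0.319 with that array and 0.0246 without it in limma.

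Pim1, a serine/threonine kinase induced by cytokines, and Maff, a small MAF protein, were lowest in the combination. Pim1 read 224, 195 and 265 with vehicle, 194, 184 and 182 with AICAR, 117, 373 and 160.0 with GW1516, and 67.3, 76.7 and 106 with the combination. The combination arrays were below all others, and the difference from vehicle was -1.47 ± 0.32 (limma, adjusted p = 0.0958). Without GW1516 replicate 2, the highest array, the difference was the same with an SE of 0.20 and passed the threshold (limma, adjusted p = 0.00356). In that setting GW1516 added to AICAR (-1.19) and the average GW1516 effect (-0.96) also passed for Pim1 (limma, adjusted p = 0.0461 and 0.0149). GW1516 alone gave -0.24 with that array and -0.73 without it (limma, adjusted p = 0.839 and 0.508). Maff read 61.2, 56.8 and 29.6 with vehicle, 48.3, 45.3 and 51.1 with AICAR, 28.8, 145 and 23.5 with GW1516, and 14.1, 6.90 and 6.24 with the combination. Its combination signals were all below those of other groups and under the filter signal, with a difference from vehicle of -2.47 ± 0.65 (limma, adjusted p = 0.179). For GW1516 alone the Maff difference was -0.03, and -0.85 without GW1516 replicate 2 (limma, adjusted p = 0.997 and 0.840).

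The upstream genes with the smallest F test p were Crtc3, a CREB coactivator, and Srf, the CArG box factor. Crtc3 read 351, 354 and 304 with vehicle, 289, 332 and 268 with AICAR, 344, 443 and 385 with GW1516, and 260.0, 255.5 and 246 with the combination, so the combination arrays were below all others. Its combination difference was -0.40 ± 0.13 (limma, adjusted p = 0.255). AICAR added to GW1516 gave -0.61 ± 0.13 and the average AICAR effect on Crtc3 was -0.40 ± 0.09 (limma, adjusted p = 0.204 and 0.126). The latter passed the threshold with median centring and with averaged probe sets (limma, adjusted p = 0.0270 and 0.0240). With averaged probe sets the Crtc3 combination difference was -0.80 and only just passed (limma, adjusted p = 0.04995). The average GW1516 effect on Srf was 0.19 ± 0.06 (limma, adjusted p = 0.363), with arrays of 768 to 843 in vehicle, 714 to 794 in AICAR, 844 to 943 in GW1516 and 857 to 876 in the combination. Gadd45b, a stress gene of the feedback list, had an average GW1516 effect of 0.48 ± 0.11 (limma, adjusted p = 0.187).

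AP-1 partners and targets were named by the same rule. Nfe2l1, a CNC family factor that pairs with small MAF proteins, differed by 0.38 ± 0.08 in GW1516 (limma, adjusted p = 0.136), with all drug arrays above the vehicle arrays. Maf, a large MAF factor, differed by -0.31 ± 0.13 in GW1516 (limma, adjusted p = 0.491), and by -0.12 without GW1516 replicate 2. It also lay below vehicle in AICAR, by -0.30 ± 0.13, and in the combination, by -0.21 ± 0.13 (limma, adjusted p = 0.709 and 0.5925). Hmox1, the inducible haem oxygenase, read 122, 130.4 and 128 with GW1516, above the other 9 arrays, and differed from vehicle by 0.43 ± 0.25 (limma, adjusted p = 0.592). The average AICAR effect on Hmox1 was -0.52 ± 0.18 (limma, adjusted p = 0.320). Cdkn1a, the p21 cell cycle inhibitor, differed by 0.60 ± 0.24 in GW1516 (limma, adjusted p = 0.487), where replicate 2 read 630.4 against 225 to 346 on the other 11 arrays. Without that array the Cdkn1a difference was 0.22.

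**Figure D5:**
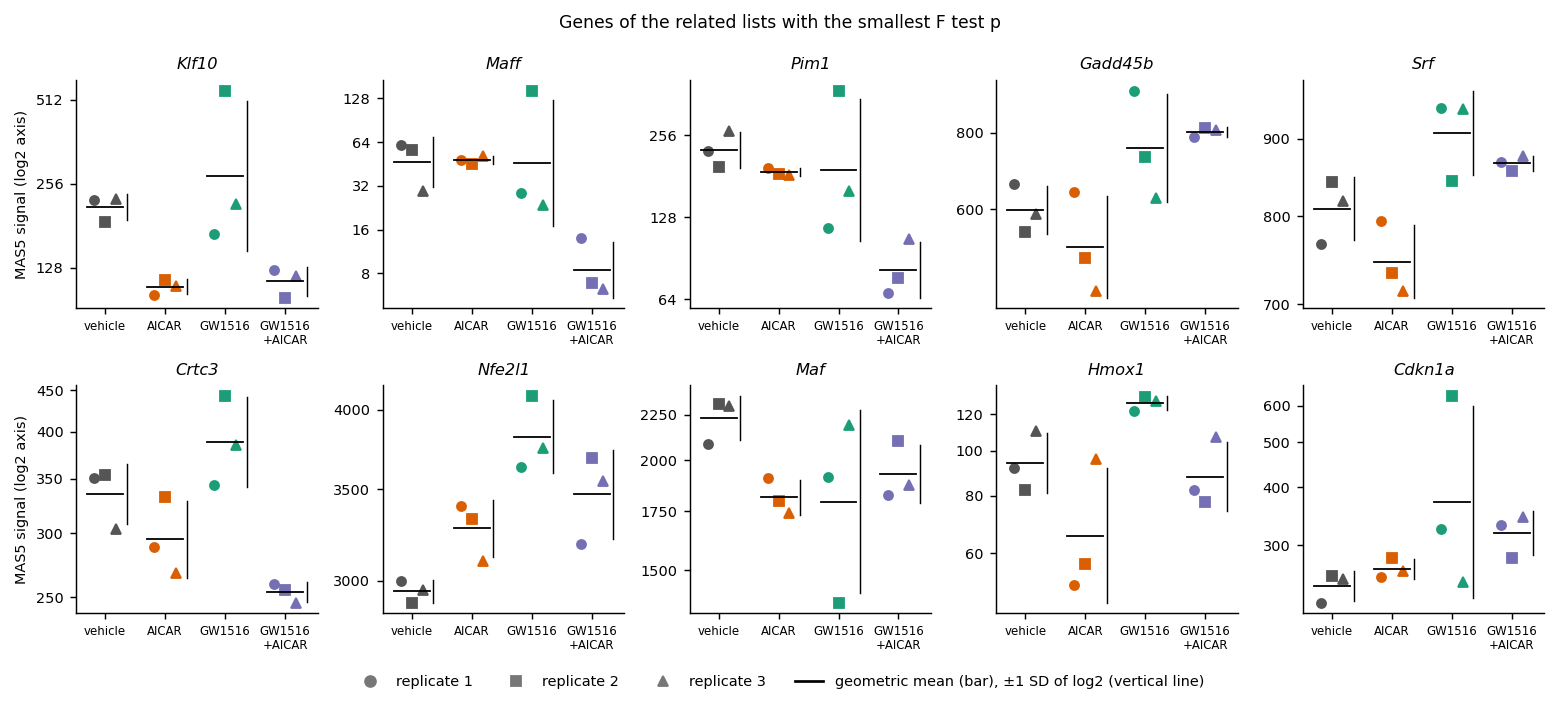
Signal on each array (MAS5 units, log2 axis that differs by gene) for the 2 genes with the smallest F test p in each of 5 related lists, with the geometric mean as a bar and 1 SD of log2 signal as a vertical line. GW1516 replicate 2 is the highest array for Klf10 (552), Maff (145), Pim1 (373) and Cdkn1a (630.4), and the combination arrays are lowest for Maff, Pim1 and Crtc3.

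Summed signals of other cell types' markers overlapped between vehicle and each drug group, except those of red blood cells. With 4 of 9 red blood cell markers tested, the sum was 188 to 243 with vehicle, 233 to 276 with AICAR, 139 to 231 with GW1516 and 247 to 268 with the combination, above every vehicle array. Of these 4 markers, however, 2 lay above vehicle and 2 below in the combination, with a median log2 difference of -0.02. The summed signal of 10 of 10 endothelial markers was 2512 to 3152 with vehicle, 2610 to 2854 with AICAR, 2649 to 2951 with GW1516 and 2536 to 2983 with the combination. The 10 macrophage markers gave 2447 to 3210, 2761 to 3224, 1687 to 2987 and 2104 to 2893 in the same order. For 9 of 10 fibroblast markers GW1516 replicate 2 read 14440, and the other 11 arrays 26220 to 37160. Adipocyte markers, with 7 of 10 tested, were 5235 to 11240, 6799 to 19560, 6977 to 13960 and 6753 to 15620. All 7 lay above vehicle in each drug group, with median log2 differences of 0.98, 0.69 and 0.66, and the 9 fibroblast markers all lay below vehicle in GW1516, with a median of -0.36. No marker of any list was called, and the part of these levels in the early gene values was not tested.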

How the data were processed

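RNA pooled from 3 mice was hybridised to each of 12 arrays, 3 per group, and groups came from the sample titles. Per the submitters' processing notes, the authors computed the deposited intensity values with MAS5. They are linear, with 1 value per probe set. For the MAS5 version and the scanner, settings were not given in the sources used here.

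The arrays held 45101 probe sets, and 64 control sets were removed. Of the rest, 34945 had 1 gene symbol in the array annotation, 932 several and 9160 none. Signals below 1 (3531 values) were set to 1 before the log2 transform, and no other normalization was applied. The lowest 40% of probe sets by mean log2 signal, below 28.2, were left out, and the brightest probe set stood for each gene. limma 3.58.1 (R 4.3.3) fitted the 4 group means with a variance trend, 8 residual and 5.91 prior degrees of freedom. P-values are two-sided and adjusted over 12771 genes by Benjamini-Hochberg, or over 22714 probe sets where a second probe set is given. Scripts were tested on simulated data. The median SE of a difference was 0.19. The number of arrays limits the precision.

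Named genes were the 10 members, the 2 genes of each related list with the smallest F test p, and the 6 most and 3 least correlated genes. Members and lists were chosen with earlier results of these data known. Figures used matplotlib 3.10.9 in Python 3.11.15.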

Additional observations from a re-analysis of the deposited data

How the results depend on the processing

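No immediate early gene was called under any setting. Over 72 differences of the 9 genes tested, 1557 alternative values were computed, of which 1464 kept the sign and 93 had the other sign without a call. Taking the lowest adjusted p per gene in limma over all settings, the smallest were 0.0638 for Ier5 in the combination (without GW1516 replicate 2), 0.0669 for Ier2 in the combination (array weights) and 0.0774 for Junb in the average AICAR effect (median centring). Among the named genes of related lists, alternatives added calls for Klf10, Pim1, Maff and Crtc3. The other genes of these lists were not followed through every setting.

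Counts of called genes over the whole array moved more, and the cause was not tested. For AICAR against vehicle, 1 gene was called, and 4 with quantile normalization, 4 with a pseudocount of 32, 0 without a variance trend, 15 with array weights and 28 with only the groups compared. For GW1516 against vehicle the 12 calls became 7 with probe sets averaged per gene, 0 without trend and 2 with only the groups compared. The 33 calls of the combination became 18 without a filter, 59 over all probe sets, 2 without trend and 92 with array weights. The 4 calls for GW1516 added to AICAR became 2 with quantile normalization, with median centring, without a filter and with averaged probe sets. AICAR added to GW1516 had 0 calls, and 1 without trend. The 4 calls of the average AICAR effect became 120 with median centring, 18 with the pseudocount, 15 without a filter, 7 with averaged probe sets, 16 over all probe sets, 0 without trend and 29 with array weights. The 19 calls of the average GW1516 effect became 7 without trend, and the 14 of the F test 25 with median centring, 22 over all probe sets, 0 without trend and 45 with array weights.

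Leaving out 1 array at a time gave 0 to 8 calls for AICAR, 0 to 41 for GW1516 and 10 to 95 for the combination against vehicle. It gave 1 to 10 for GW1516 added to AICAR, 0 to 10 for AICAR added to GW1516, 3 to 18 and 14 to 36 for the average AICAR and GW1516 effects, 0 to 0 for the interaction and 7 to 38 for the F test.

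Median centring shifted the median of all genes to -0.11 for AICAR, -0.10 for AICAR added to GW1516 and -0.11 for the average AICAR effect. Calls in the combination were 20 higher and 13 lower as deposited, and 8 and 22 after centring. In the average AICAR effect they were 2 and 2, then 12 and 108.

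Replicate numbers did not pair the arrays. Arrays of the same number had deviations correlated at -0.108 to 0.0694, and none of 6 pairs per number passed 0.1. With the replicate number as a block, 4 genes were called for AICAR, 16 for the combination and 1 for GW1516 added to AICAR.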
